A study of Mus musculus with 2 samples.

Results

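A set of 10 genes of the endoplasmic reticulum (ER) stress response were followed through 2 single-cell RNA-seq libraries of E9.5 mouse embryos. The genes were Hspa5, Creld2, Sdf2l1, Manf, Pdia4, Hyou1, Dnajb9, Herpud1, Atf4 and Asns. They were chosen by symbol, and all 10, out of 32285 genes in the count matrices, were detected in both libraries. The first library came from wild-type whole embryos and the other from Usb1-null whole embryos, in which a germline CRISPR/Cas9 deletion removed part of Usb1, the nuclease gene for the 3′-end of U6 snRNA. Embryos came from heterozygous intercrosses. The sources used here do not give the number of embryos per library. The submitters name the molecule as nuclear RNA, although the protocol describes dissociated single cells.

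Proteins that enter the ER are folded by chaperones and joined by disulphide bonds. When unfolded proteins accumulate, the sensors Ire1, Perk and Atf6 are activated, and their transcription factors Xbp1, Atf4 and Atf6 raise chaperone genes (the unfolded protein response). The Perk branch acts through phosphorylation of eIF2, which favours translation of Atf4, and Atf4 in turn drives amino acid genes such as Asns. Atf4 is controlled largely at translation, so its mRNA level is an incomplete view of its activity. Fast-growing embryonic tissue and secretory epithelium such as yolk sac endoderm are known to need ER folding capacity.

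The regulatory letters of this response can be read in the promoters. RefSeq promoters of GRCm38.p6 were held for 8 of the 10 genes, and the 250 bases before each start were searched on both strands. The ER stress element (ERSE) is CCAAT and CCACG separated by 9 bases, ERSE-II is ATTGG and CCACG separated by 1 base, the unfolded protein response element (UPRE) was searched as TGACGTGG, and the C/EBP-ATF response element (CARE) as TGATGNAA. ERSE and ERSE-II share CCACG, but no match of one overlapped a match of another. ERSE was found upstream of Hspa5, 65 to 47 bases before the start, and of Creld2 on the reverse strand, 126 to 108 bases before it. These letters were in 0.113% of all 32851 promoters. ERSE-II was found upstream of Herpud1 (0.0304% of promoters), 52 to 42 bases before the start. CARE was found upstream of Asns, 23 to 16 bases before the start, and of Herpud1 on the reverse strand, 112 to 105 bases before it (3.45% of promoters). No UPRE match was in any of the 8 (0.563% of promoters). A match is a description of letters and not of a bound site. The stretches with a match are printed here in the direction of transcription, with the fixed blocks of ERSE and ERSE-II and the whole of each CARE match, its free base included, in capitals, together with Pdia4, which was the member furthest above 1 between the libraries and had no match. For Hspa5 (chr2:34772020-34772049, plus strand) and Asns (chr6:7693214-7693243, minus strand), 30 bases are shown, because the outermost GENCODE M21 start of these genes lies upstream of the match. For Creld2 (chr15:88819496-88819645, plus strand), Herpud1 (chr8:94386279-94386428, plus strand) and Pdia4 (chr6:47813513-47813662, minus strand), the 150 bases before the start are shown.
Hspa5: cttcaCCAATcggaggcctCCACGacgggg
Creld2: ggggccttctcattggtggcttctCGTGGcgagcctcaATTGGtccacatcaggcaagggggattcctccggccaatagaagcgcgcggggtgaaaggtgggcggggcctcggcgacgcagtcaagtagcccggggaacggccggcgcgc
Herpud1: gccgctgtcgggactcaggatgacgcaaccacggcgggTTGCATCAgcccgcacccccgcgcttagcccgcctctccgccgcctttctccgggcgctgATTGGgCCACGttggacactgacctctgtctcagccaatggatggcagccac
Asns: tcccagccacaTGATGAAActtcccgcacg
Pdia4: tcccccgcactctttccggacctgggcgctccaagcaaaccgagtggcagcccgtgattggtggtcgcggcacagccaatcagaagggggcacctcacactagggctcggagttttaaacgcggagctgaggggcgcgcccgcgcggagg

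Each library held unique molecular identifiers (UMIs), which count captured transcripts near their 3′-end. Cell filters on gene number and mitochondrial share left 15161 wild-type cells with 21732106 UMIs and 13018 Usb1-null cells with 33383886 UMIs. The libraries differed in depth, with a median of 1243 UMIs per wild-type cell and 2299.5 per Usb1-null cell, and shared 61 cell barcodes. Mitochondrial genes took 0.435% and 0.191% of UMIs. Xist gave 53276 and 26 UMIs and 4 Y-linked genes 14 and 23463, so that sex and genotype cannot be told apart. Usb1 gave 68 and 47 UMIs, at 3.13 and 1.41 CPM, a ratio of 0.450 (0.303 to 0.662), and the counts do not show whether these reads lie inside the deleted stretch. With 1 library per genotype there is no replicate, no test was made, and all intervals are 95% intervals of counting error. Levels are UMIs of a gene per 1000000 UMIs of the library or cluster (CPM) and cannot be compared between genes, because capture differs by transcript. A ratio is the Usb1-null CPM over the wild-type CPM.

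In whole libraries, 3 of the 10 genes were at least 1.2-fold lower in the Usb1-null library, beside 21.1% of the 15031 genes with at least 100 UMIs, and 2 were at least 1.2-fold higher, beside 18.8%. Creld2, Manf and Herpud1 were the lower and Pdia4 and Hyou1 the higher. The median log2 ratio was -0.13 over the 10 genes and -0.01 over all genes. At 1.5-fold, 1 gene was lower (5.43% of all genes) and 0 were higher (6.95%). The counts for the 10 genes therefore lay close to the shares of all genes, and the chaperones did not share a direction.

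The main luminal chaperone was slightly lower. Hspa5 (chr2:34771970-34777547, GRCm38, as for all genes here) encodes BiP, the ER Hsp70 that binds unfolded chains and holds the stress sensors inactive. Its level was 1184 CPM (1169 to 1198) in wild-type cells against 1065 CPM (1054 to 1076) in Usb1-null cells, for a ratio of 0.900 (0.886 to 0.915). It was detected in 73.9% and 86.9% of cells, and in 56.6% and 54.2% after each cell was thinned to 750 UMIs, so the higher detection in the Usb1-null library was not seen at equal depth. Dnajb9 (chr12:44205559-44210326), the Hsp40 co-chaperone of BiP also called ERdj4, was at 28.9 and 26.8 CPM, with a ratio of 0.930 (0.839 to 1.03) that does not differ from 1 beyond counting error. Sdf2l1 (chr16:17130138-17132383), which forms a complex with ER Hsp40 proteins, was at 42.8 and 37.0 CPM, a ratio of 0.864 (0.793 to 0.942).

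The genes of the folding machinery that differed most did so in opposite directions. Creld2 (chr15:88819646-88826683), a secreted ER stress protein with disulphide isomerase activity, was at 42.7 CPM (40 to 45.5) in wild-type cells against 25.6 CPM (24.0 to 27.4) in Usb1-null cells, for a ratio of 0.601 (0.547 to 0.660), and 2.71% of all genes were as low or lower. Pdia4 (chr6:47796141-47813430), a disulphide isomerase with several thioredoxin-like domains, was at 161 CPM (156 to 167) and 217 CPM (212 to 222), a ratio of 1.35 (1.29 to 1.40). Hyou1 (chr9:44379490-44392369), the large ER Hsp70-related protein Grp170 that exchanges nucleotide on BiP, was at 60.2 CPM (57.0 to 63.5) and 77.1 CPM (74.2 to 80.2), a ratio of 1.28 (1.2 to 1.37). The intervals of the libraries did not overlap for these 3 genes, nor for Hspa5, Sdf2l1, Manf and Herpud1. The share of all genes with such intervals is not given here. Manf (chr9:106838312-106891979), a secreted and ER-resident trophic factor that binds BiP, was at 435 CPM (426 to 444) and 350 CPM (344 to 357), a ratio of 0.806 (0.784 to 0.828). Herpud1 (chr8:94386438-94395377), a membrane protein of ER-associated degradation, was at 49.7 CPM (46.8 to 52.8) and 40.7 CPM (38.6 to 43.0), a ratio of 0.820 (0.756 to 0.889).

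Neither Atf4 nor Asns differed between whole libraries beyond counting error. Atf4 (chr15:80255184-80257541), the transcription factor of the integrated stress response, was at 87.9 CPM (84.0 to 92.0) in wild-type cells against 83.3 CPM (80.2 to 86.5) in Usb1-null cells, for a ratio of 0.947 (0.893 to 1.00). Asns (chr6:7675169-7693254), which makes asparagine from aspartate and glutamine, was at 15 and 14 CPM from 327 and 469 UMIs, a ratio of 0.934 (0.809 to 1.08).

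**Figure D1:**
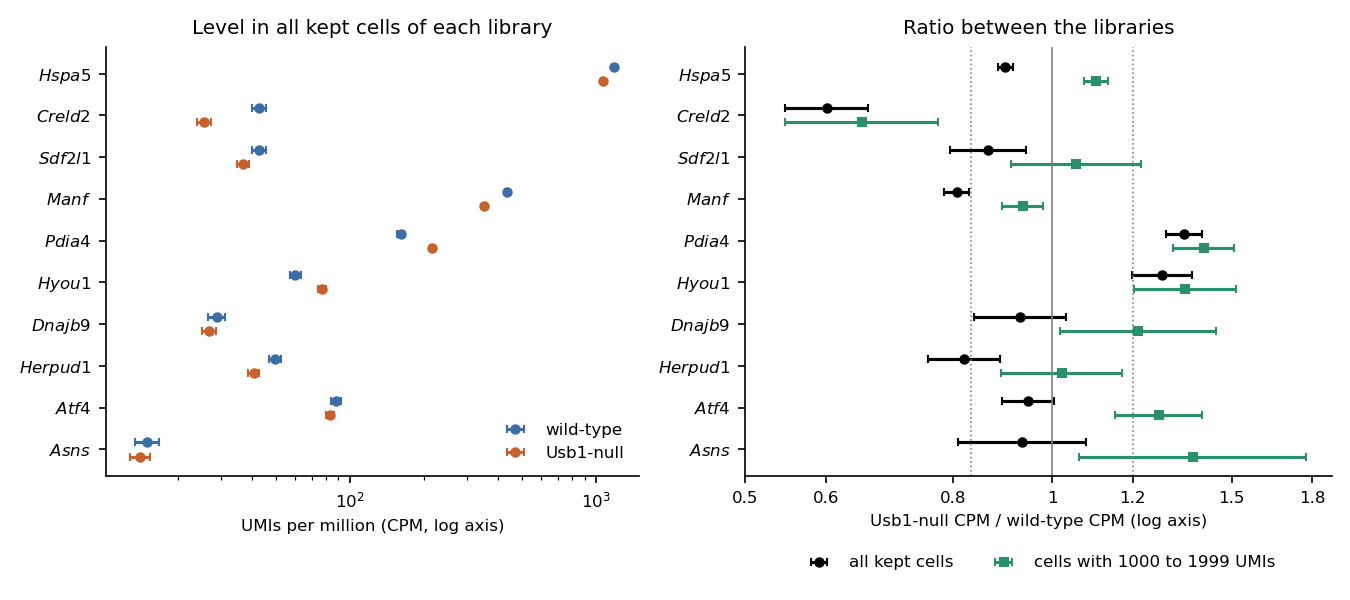
Left, CPM (log axis) of the 10 genes in all kept cells of the wild-type and Usb1-null libraries. Right, the ratio of the Usb1-null to the wild-type level (log axis) in all kept cells and in cells with 1000 to under 2000 UMIs. Bars are 95% intervals of counting error and dotted lines mark 1.2-fold either way. Creld2 lies to the left of 1 and Pdia4 and Hyou1 to the right in both sets of cells, whereas Hspa5 lies at 0.900 in all kept cells and at 1.1 in the narrower set.

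The number of UMIs per cell moved with these levels. Within each library, levels of most of the genes were higher in cells with few UMIs. By quartiles of UMIs per cell, Hspa5 ran from 1420 CPM in the shallowest to 1092 CPM in the deepest wild-type cells, and from 1409 to 964 CPM in Usb1-null cells. Manf ran from 531 to 394 CPM and from 430 to 317 CPM. Pdia4 differed, at 147 and 164 CPM in the shallowest and deepest wild-type cells, against 240 and 212 CPM in Usb1-null cells. Because the Usb1-null library was deeper, the ratios were recomputed in cells with 1000 to under 2000 UMIs, a range chosen after the levels were seen. This kept 7646 wild-type and 4430 Usb1-null cells, with medians of 1374.5 and 1573 UMIs.

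In cells of this range, 1 of the 10 genes was at least 1.2-fold lower (21.2% of 12217 genes) and 5 were at least 1.2-fold higher (20.6%). The median log2 ratio of the 10 genes was 0.21, against -0.01 for all genes. Creld2 kept its direction at 42.0 and 27.4 CPM, a ratio of 0.651 (0.547 to 0.774). Pdia4 was at 163 and 230 CPM, a ratio of 1.41 (1.31 to 1.51), and Hyou1 at 58.9 and 79.4 CPM, a ratio of 1.35 (1.2 to 1.52). Hspa5 changed side, at 1173 and 1296 CPM, a ratio of 1.1 (1.08 to 1.14). Atf4 had a ratio of 1.27 (1.15 to 1.40), Asns of 1.37 (1.06 to 1.77) and Dnajb9 of 1.21 (1.02 to 1.45). Manf had a ratio of 0.936 (0.893 to 0.980), Herpud1 of 1.02 (0.891 to 1.17) and Sdf2l1 of 1.06 (0.911 to 1.22). The range held 50.4% of wild-type and 34.0% of Usb1-null cells, and the median UMIs per cell still differed within it. Only the directions of Creld2, Manf, Pdia4 and Hyou1 were shared by both sets with intervals that left out 1. The cells of the range are part of all kept cells, so the sets are not independent. The share of all genes that meet this condition is not given here.

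Cells at other depths, also compared at like UMIs per cell, did not repeat the higher median. It was 0.29 and 0.18 in the bins from 1000 and 1500 UMIs, which make up the range, but -0.05, 0.01 and -0.10 in the bins from 500, 2000 and 3000 UMIs. In these last 3 bins Atf4 had ratios of 1.02, 1.01 and 1.04 and Asns of 0.766, 1.00 and 0.931, all with intervals that held 1. Dnajb9 was at 1.76 (1.14 to 2.62) in the bin from 500 UMIs and at 1.01 and 0.814 in the bins from 2000 and 3000. Hspa5 ran from 1.12 (1.04 to 1.21) in the bin from 500 to 0.844 (0.812 to 0.877) in the bin from 3000 UMIs. Manf was below 1 in all 5 bins, at 0.916, 0.956 and 0.958 in the first 3 with intervals that held 1, and at 0.905 (0.855 to 0.959) and 0.818 (0.766 to 0.876) in the bins from 2000 and 3000 UMIs. Creld2 was below 1 and Pdia4 and Hyou1 above 1 in all 5 bins, with intervals that held 1 for Creld2 from 500 and for Hyou1 from 1500 and 3000 UMIs.

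**Figure D2:**
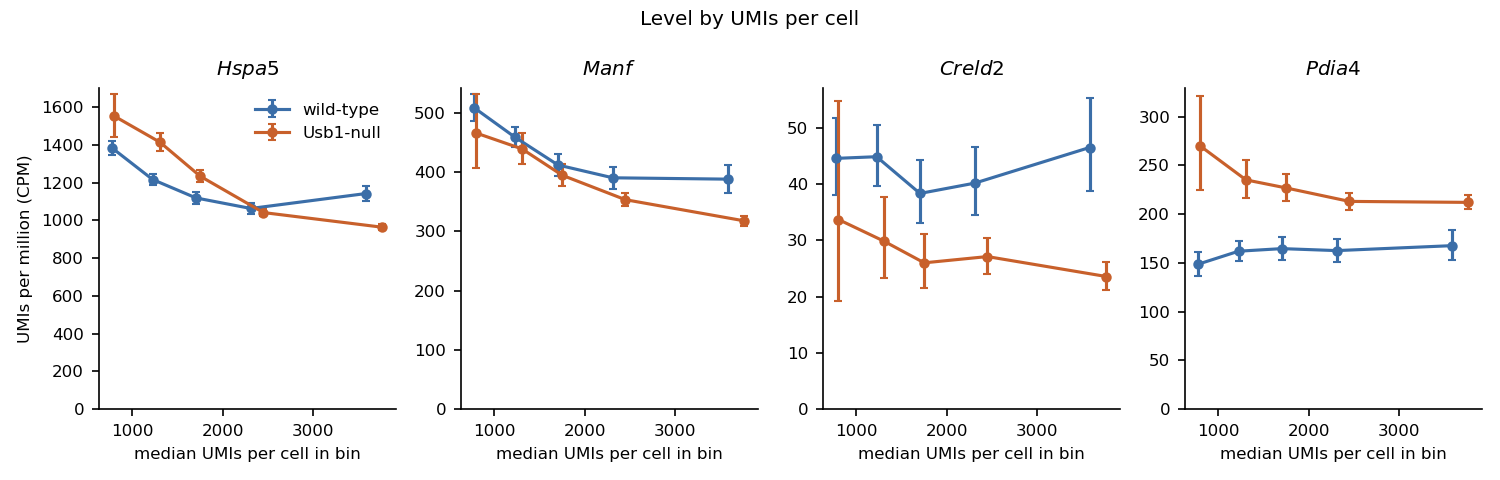
CPM of Hspa5, Manf, Creld2 and Pdia4 against the median UMIs per cell in 5 bins that start at 500, 1000, 1500, 2000 and 3000 UMIs. Points are libraries and bars are 95% Poisson intervals of counting error. The Hspa5 lines cross between the bins from 1500 and from 2000 UMIs, where its ratio goes from 1.1 to 0.980, and the Creld2 and Pdia4 lines do not cross.

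Gene length moved with the ratios as well. Over all genes, the share at least 1.2-fold lower in the Usb1-null library was 41.9% in the shortest quintile of gene models and 9.38% in the longest, and the median log2 ratio ran from -0.17 to 0.02. Of the 10 genes, 5 (Hspa5, Creld2, Sdf2l1, Dnajb9 and Atf4) were in the shortest quintile. Relative to the median of its own quintile, Hspa5 had a ratio of 1.01 and Creld2 of 0.677, while Pdia4 and Hyou1, both in the next quintile, had 1.40 and 1.33. The part of gene length and of depth in these ratios was not tested.

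The cells were grouped into 17 clusters without use of the 10 genes or of the pathway genes, and 16 of them, each with 100 or more cells per library, were compared. Names ending in "-like" rest on marker genes, and clusters 5 and 9, which met no naming rule, kept a number. The yolk sac and hepatic endoderm-like cluster had 9 raised markers of its class, 2 of them among its 10 leading genes, but also 8 of gut and pharyngeal endoderm. Its first leading genes, Nepn and Rfx6, are on neither list. The midbrain-like cluster had 10 raised markers of its class and 8 of forebrain. The neural crest and glia-like cluster had 9 of its class and 8 of craniofacial mesenchyme. Cluster 5 had raised markers of both neural progenitors and the roof plate, and cluster 9 had few UMIs, with medians of 714 and 1173.5 per cell. A cluster of 56 wild-type and 43 Usb1-null hepatocyte-like cells was too small and was left out.

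Creld2 was lower in the Usb1-null library in 16 of 16 clusters, and in 10 of them beyond counting error. Of 10882 genes with at least 500 UMIs, 4.65% were lower in all 16, and Creld2 was the only one of the 10 genes among them. Its ratios ran from 0.444 (0.214 to 0.938) in yolk sac and hepatic endoderm-like cells, where it was at 48.3 and 21.4 CPM, to 0.742 (0.505 to 1.09) in neural crest and glia-like cells, at 32.6 and 24.2 CPM. In midbrain-like cells, which gave the most Creld2 UMIs, it was at 59.8 CPM (50.5 to 70.3) and 33.6 CPM (28.0 to 39.9). In cells with 1000 to under 2000 UMIs, Creld2 was lower in 14 of 16 clusters and in 2 beyond counting error.

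Pdia4 showed the opposite pattern and was higher in 16 of 16 clusters, in 10 beyond counting error, where 3.43% of genes were higher in all 16. Its ratio was highest in intermediate mesoderm-like cells at 1.59 (1.02 to 2.56) and lowest in cardiomyocyte-like cells at 1.06 (0.837 to 1.36). In somite and sclerotome-like cells it was at 156 CPM (143 to 170) in wild-type cells against 222 CPM (209 to 235) in Usb1-null cells. Hyou1 was higher in 15 of 16 clusters and in 6 beyond counting error, with 84.6 against 52.5 CPM in surface ectoderm-like cells, a ratio of 1.61 (1.28 to 2.04). The exception was splanchnic mesoderm-like cells, at 59.7 and 58.6 CPM. In cells with 1000 to under 2000 UMIs, Pdia4 and Hyou1 were each higher in 14 of 16 clusters, in 9 and 2 beyond counting error.

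Hspa5, Manf and Herpud1 were each lower in 15 of 16 clusters, and primitive erythroid-like cells were the exception for all 3. Together with Creld2, 4 of the 10 genes were lower in at least 14 clusters, beside 15.4% of genes, and 2 were higher in at least 14, beside 13.0%. Hspa5 did not reach 14 when clustered without doublets (11 of 16), with pathway genes kept (13 of 16) or without library correction (12 of 15), and in the last Herpud1 was lower in 13 of 15. Herpud1 was lower beyond counting error in 3 clusters and Manf in 11. The interval of the Hspa5 ratio left out 1 in 9 clusters. The ratio was lowest in cardiomyocyte-like cells, where the level was 1096 CPM (1028 to 1166) in wild-type cells against 837 CPM (790 to 886) in Usb1-null cells, for a ratio of 0.764 (0.702 to 0.832). In midbrain-like cells it was at 1234 and 1233 CPM. In cells with 1000 to under 2000 UMIs, Hspa5 was lower in 7 clusters and higher in 9, with 0 lower and 5 higher beyond counting error. In the same cells Manf was lower in 12 of 16, 2 of them beyond counting error, and Herpud1 in 7, with 0 beyond it.

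In cardiomyocyte-like cells, which had the lowest Hspa5 ratio of the compared clusters, Hspa5, Manf and Atf4 were lower beyond counting error. The share of all genes lower beyond it in this cluster is not given here. Creld2, Sdf2l1, Dnajb9 and Herpud1 had ratios of 0.624, 0.624, 0.598 and 0.888 there, and Pdia4, Hyou1 and Asns of 1.06, 1.05 and 1.19, all with intervals that held 1. Manf had a ratio of 0.657 (0.563 to 0.767). The 8 ER genes summed, all but Atf4 and Asns, stood at 1767 and 1352 CPM, a ratio of 0.766 (0.716 to 0.819). Most of this sum is Hspa5 and Manf. Atf4 in these cells was at 119 CPM (97.5 to 144) in wild-type cells against 75 CPM (61.5 to 90.6) in Usb1-null cells, for a ratio of 0.630 (0.478 to 0.831). Atf4 was lower in 9 of 16 clusters and beyond counting error in 3, the other two being primitive erythroid-like and floor plate and ventral neural tube-like cells, at ratios of 0.691 and 0.566. In cells with 1000 to under 2000 UMIs, Atf4 was lower in 4 clusters and higher in 12, with 0 lower and 4 higher beyond counting error. Median UMIs per cardiomyocyte-like cell were 1506 and 2690, and the part of depth in these ratios was not tested.

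**Figure D3:**
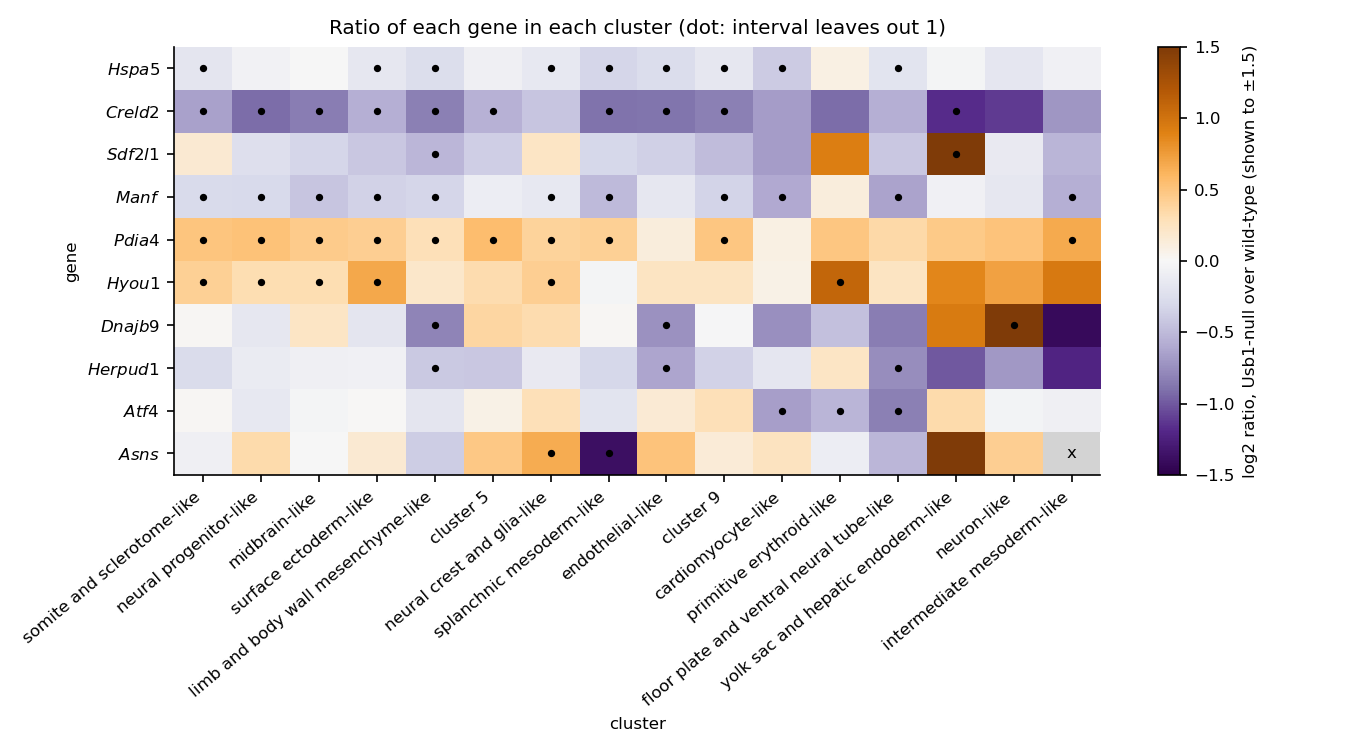
Log2 ratio of each gene (rows), Usb1-null over wild-type, in the 16 compared clusters (columns), with colours held at 1.5 either way. A dot marks a 95% counting interval that leaves out 1, and the cross marks Asns in intermediate mesoderm-like cells, with 0 UMIs in wild-type. The Creld2 row is on the lower side and the Pdia4 row on the higher side in all 16 columns.

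The sum of the 8 ER genes is mostly Hspa5 and Manf, at 1184 and 435 CPM in wild-type cells, with Pdia4 next at 161 CPM. By cell class, this sum followed a similar order in both libraries, with a rank correlation of 0.935 over the 16 clusters. It was 0.915 for Hspa5 and 0.868 for Hyou1, but 0.371 for Herpud1 and 0.147 for Dnajb9, and between 0.65 and 0.732 for the other 4 ER genes. The 8 ER genes summed were highest in cluster 9, at 2766 CPM (2642 to 2893) in wild-type cells against 2505 CPM (2409 to 2605) in Usb1-null cells. They were lowest in yolk sac and hepatic endoderm-like cells, at 1279 CPM (1156 to 1411) and 1305 CPM (1231 to 1382). Highest and lowest differed 2.16-fold and 1.92-fold, and for Hspa5 alone 2.16-fold and 1.97-fold. Midbrain-like cells came second in both libraries, at 2248 and 2139 CPM, and below cluster 9 beyond counting error. Of the 15 steps between neighbours in this order, 2 in the wild-type and 4 in the Usb1-null library exceeded counting error, so most neighbours cannot be ordered. Cluster 9 had the lowest UMIs per cell of the compared clusters and the highest summed dissociation genes, at 485 and 498 CPM. Cardiomyocyte-like cells were next, at 479 and 472 CPM. Cluster 9 was also highest for the summed cytosolic and mitochondrial chaperones, at 5508 and 4633 CPM. The part of these differences in the order was not tested. Leaving out cluster 9, Hspa5 still ran from 1341 to 1087 CPM and from 1343 to 959 CPM from the shallowest to the deepest quartile of cells.

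Single ER genes partly shared their highest class, and Hspa5, Manf, Hyou1 and Dnajb9 were all highest in cluster 9 in wild-type cells. For Creld2, Sdf2l1, Hyou1, Dnajb9 and Herpud1, no step between neighbouring clusters exceeded counting error in either library. Hspa5 in wild-type cells was 1648 CPM (1553 to 1747) in cluster 9, 1273 CPM in neural progenitor-like and 764 CPM (670 to 867) in yolk sac and hepatic endoderm-like cells. Manf was high in cluster 9 and midbrain-like cells, at 601 and 593 CPM in wild-type, and 478 CPM in neural progenitor-like cells, the next class. Pdia4 was lowest in primitive erythroid-like cells in both libraries, at 81.5 CPM (62.0 to 105) and 114 CPM (84.0 to 152), and cardiomyocyte-like cells were next in the Usb1-null library at 131 CPM (113 to 151). Dnajb9 was highest in cluster 9 at 65.9 and 65.1 CPM, against medians over clusters of 27.4 and 23.4 CPM. Sdf2l1 was at 59.0 and 49.9 CPM in neural progenitor-like cells, the first in its order in both libraries, but within counting error of the next cluster. The first places of Manf, Pdia4, Dnajb9 and Atf4 were also within counting error of the next in both libraries.

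Asns stood apart by cell class. In primitive erythroid-like cells it was at 93.9 CPM (72.9 to 119) in wild-type cells against 87.6 CPM (61.3 to 121) in Usb1-null cells, against medians over the 16 clusters of 11.1 and 13.2 CPM. The next class was limb and body wall mesenchyme-like in wild-type, at 17.2 CPM, a step of 5.47-fold (3.57 to 8.52), and neural crest and glia-like in Usb1-null, at 26.7 CPM, a step of 3.28-fold (2.12 to 5.01). Thinned to 750 UMIs, which left 12973 wild-type and 12749 Usb1-null cells, 6.65% and 8.02% of primitive erythroid-like cells held an Asns UMI, against 1.08% and 1.09% of all cells, and without thinning 10.0% and 14.9% against 2.1% and 3.37%. The erythroid-like clusters held 617 and 195 cells. None of the other steps in the order of Asns exceeded counting error. Atf4 was highest in primitive erythroid-like cells in wild-type, at 148 CPM (121 to 179), and in cluster 9 in Usb1-null cells, at 137 CPM (115 to 162). With wild-type cluster shares applied to both libraries, the ratio of Asns was 1.05.

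**Figure D4:**
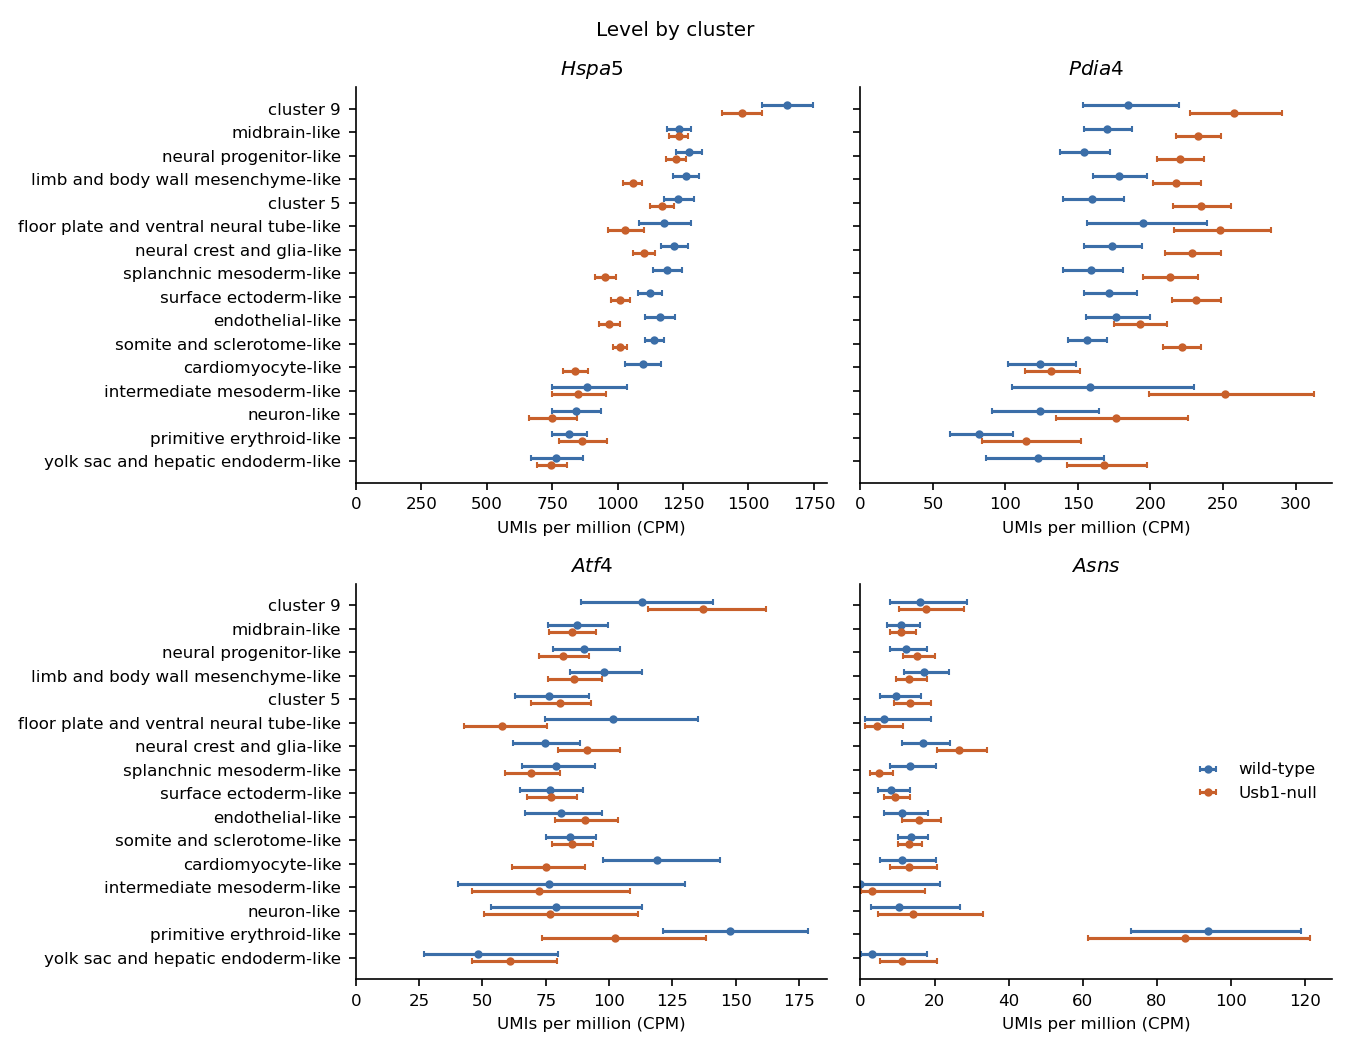
CPM of Hspa5, Pdia4, Atf4 and Asns by cluster, with clusters in the order of the summed ER genes in wild-type cells. Points are the wild-type and Usb1-null libraries and bars are 95% Poisson intervals of counting error. Asns in primitive erythroid-like cells, at 93.9 and 87.6 CPM, lies apart from the other clusters, none of which is above 26.7 CPM.

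Across the 16 clusters, Pearson r of log2 levels was above 0 in 26 of 28 pairs of the 8 ER genes in each library, with medians of 0.53 (wild-type) and 0.52 (Usb1-null). Over all pairs of genes with at least 1000 UMIs, 55.3% and 53.7% were above 0, with medians of 0.05 and 0.04. These values describe 16 clusters of the same libraries that also differ in depth. Among the genes outside the lists most like the mean ER profile in wild-type cells were Elovl5, a fatty acid elongase of the ER (r of 0.89, and 0.77 in Usb1-null cells), Gcfc2 (0.87 and 0.71), Med22 (0.86 and 0.37) and Abhd17b (0.86 and 0.70). Those most like Asns were Josd1 (0.95 and 0.81), Dhx29 (0.92 and 0.54), Riok1 (0.92 and 0.52), Farsb, a subunit of phenylalanyl-tRNA synthetase (0.92 and 0.75), and Celf1 (0.91 and 0.71).

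Other lists of ER folding had more lower than higher genes in all kept cells, as did all genes, and gene length was not taken into account. The counts given for lists use the 1.2-fold limit and genes with at least 100 UMIs, for which 21.1% of all genes were lower and 18.8% higher. Of 21 other ER chaperones and co-chaperones, 9 were lower and 0 higher, with a median log2 ratio of -0.19. Cnpy2, a saposin-like ER protein, was lowest at 140 and 76.1 CPM, and Sec63, a translocon Hsp40, was highest at 333 and 360 CPM. Of 18 disulphide isomerases and oxidases, 5 were lower and 2 higher, with Erp29 at 269 and 161 CPM and Ero1l, the oxidase that recharges disulphide isomerases, at 52.7 and 87.6 CPM. Of 31 genes of translocation, signal cleavage and glycosylation, 12 were lower and 2 higher, from Ssr4 of the translocon-associated complex, at 173 and 91.8 CPM, to Spcs3 of the signal peptidase, at 54.8 and 87.0 CPM. Of 24 genes of ER-associated degradation, 5 were lower, near the share of all genes, and 2 higher. They ran from Ubxn6 at 15.9 and 10.3 CPM to the ubiquitin ligase Rnf5 at 12.4 and 17.2 CPM. Cytosolic and mitochondrial chaperones, which do not belong to the ER, had 11 of 21 lower and 0 higher, with Hspb1 at 10.4 and 3.32 CPM and Hsph1 at 111 and 127 CPM.

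The genes of signalling and of the Atf4 branch are given next, and no difference between lists was tested. Of 18 genes in the list of sensors, transcription factors and effectors of the unfolded protein response, 1 was lower and 1 higher, with a median log2 ratio of 0.17. The first was the transcription factor Creb3, at 10.7 and 8.66 CPM, and the second Bbc3, which encodes the cell death protein Puma and is also a p53 target, at 4.0 and 6.71 CPM, so that no sensor or transcription factor of the list was higher by 1.2-fold. Of 16 genes of eIF2 control, 2 were lower and 1 higher, from Eif2b1 at 22.5 and 15 CPM to Ppp1r15b, a subunit of the eIF2 phosphatase, at 41.5 and 70.5 CPM. Of 22 amino acid genes under Atf4, 6 were lower and 4 higher, and with a minimum of 500 UMIs 6 and 2 of 18. The extremes were the subunits of the same transporter, Slc3a2 at 142 and 92.3 CPM and Slc7a5 at 23.2 and 41.2 CPM. Of 12 aminoacyl-tRNA synthetases, 4 were lower and 0 higher, from Mars at 36.7 and 25.9 CPM to Aars at 41.9 and 42.1 CPM.

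The stress regulators under Atf4 form the last list. Of 15 measured genes, 2 were lower and 8 higher, with a median log2 ratio of 0.75. With a minimum of 20 UMIs, 17 genes were measured, 4 were lower and 8 higher, and the median was 0.09, below that of the hypoxia list at 0.52, while 4083 of all 18921 genes were lower and 4680 higher. Nupr1, with 18 and 4 UMIs and a ratio of 0.145 (0.0356 to 0.439), and Trib3, with 53 and 33 UMIs and a ratio of 0.405 (0.254 to 0.638), were among those below 100 UMIs and were named after their values were seen. Of the genes with at least 100 UMIs, Ddit3, which encodes the ER stress factor Chop, was the lowest at 14.6 CPM in wild-type cells against 9.68 CPM in Usb1-null cells, for a ratio of 0.661 (0.565 to 0.774). Cebpb was the highest, at 0.920 and 3.24 CPM, a ratio of 3.52 (2.17 to 5.98) from 20 and 108 UMIs. Several genes of this list also stand in the hypoxia list, in which 12 of 18 were higher and 2 lower, with Bnip3 at 27.1 and 67.8 CPM and Mif at 225 and 159 CPM. Of 15 genes of the response to dissociation, 7 were higher and 2 lower, with Dusp1 at 7.87 and 12.7 CPM and Jun at 53.5 and 40.1 CPM. With a minimum of 500 UMIs, 8 were measured and 2 were higher and 2 lower. The part of hypoxia or dissociation in the levels of the 10 genes was not tested.

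In cells with 1000 to under 2000 UMIs, the list counts were different, and 21.2% of all genes were lower and 20.6% higher. Other ER chaperones had 4 lower and 1 higher of 21, and disulphide isomerases 1 lower and 5 higher of 18. Genes of ER-associated degradation had 4 lower and 4 higher of 24. Genes of translocation, signal cleavage and glycosylation had 7 lower and 7 higher of 31. The counts of these last lists lay near the shares of all genes. Cytosolic and mitochondrial chaperones had 6 lower and 3 higher of 21. The list of sensors, transcription factors and effectors had 1 lower and 6 higher of 17 measured, with a median log2 ratio of 0.21. The stress regulators under Atf4 had 1 lower and 8 higher of 13 measured, with a median log2 ratio of 0.66. The hypoxia list, which shares genes with it, had 1 lower and 10 higher of 15 (median 0.43), and the dissociation list 1 lower and 6 higher of 10 (median 0.35). Genes of eIF2 control had 2 lower and 2 higher of 16 measured. Amino acid genes had 4 lower and 3 higher of 18, and aminoacyl-tRNA synthetases 4 lower and 0 higher of 12.

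**Figure D5:**
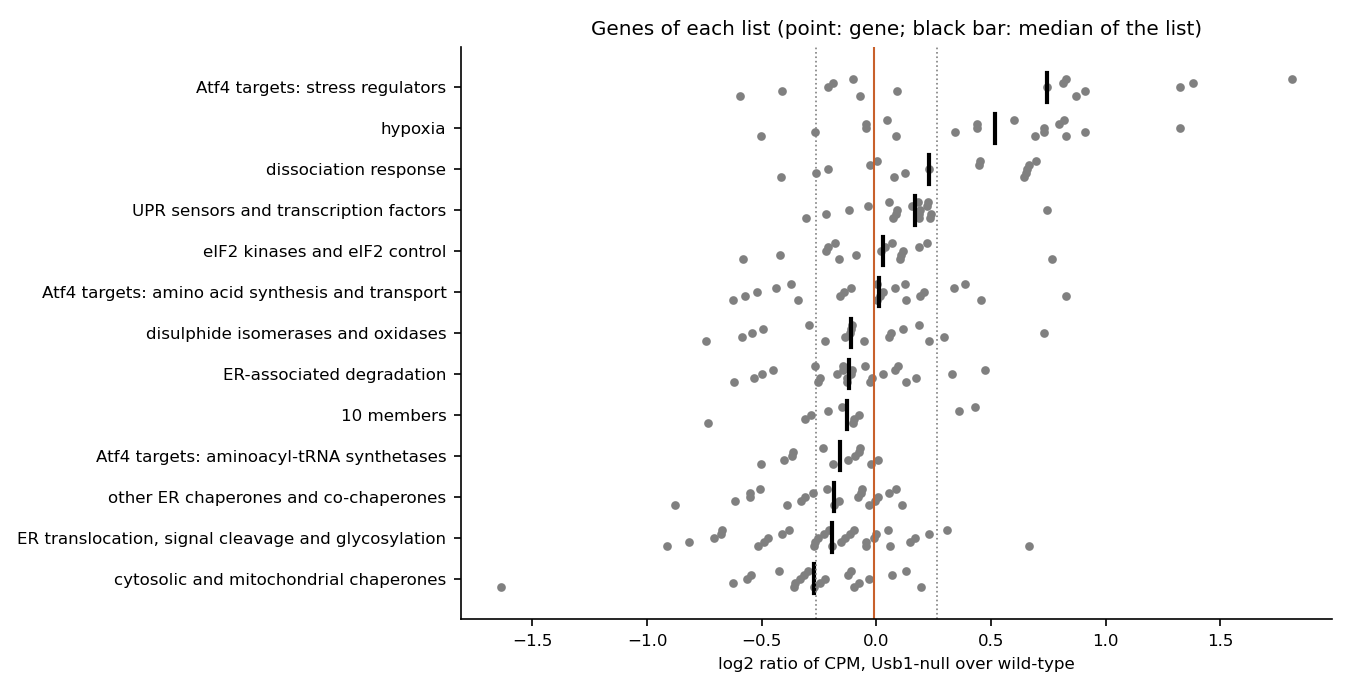
Log2 ratio of CPM, Usb1-null over wild-type, for the genes with at least 100 UMIs in each list (grey points). Black bars are medians of the lists, the orange line is the median of all genes (-0.01) and dotted lines mark 1.2-fold either way. The 10 genes have a median of -0.13, and the stress regulators under Atf4, at 0.75, stand to the right of the chaperone lists.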

How the data were processed

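Single-cell suspensions of E9.5 whole embryos were run on the 10x Chromium 3′ platform, 1 library per genotype. The authors deposited one matrix of UMI counts per library, not normalised. The matrix headers name Cell Ranger 6.1.2 and the submitters' notes Cell Ranger 2.1.1 and build mm10. The sources used here do not give the annotation or the use of intronic reads. The study's stated cell number is below the number that passes its filter here for wild-type and above it for Usb1-null, where it equals the deposited barcodes.

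Cells with 200 to 6000 detected genes and under 30% mitochondrial UMIs were kept. Variable genes (2000, without the 10 genes and 247 list genes), 30 components, a NumPy 2.4.6 version of Harmony, 15 neighbours and Leiden (leidenalg 0.10.2, resolution of 0.4, chosen to come near 19 clusters) gave 17 clusters. Doublets called by Scrublet in Scanpy 1.11.5 (933 wild-type and 569 Usb1-null cells) were kept in the main values. A cluster was named for the class with most raised markers (at least 3, each with 10 UMIs and 2-fold raised), if 1 or more stood among its 10 leading genes and no other class had more there. This rule was set after the clusters were seen, so names may differ from those of the study.

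UMIs were summed per library or cluster and divided by their total (CPM). Ratios carry exact conditional binomial 95% intervals, levels exact Poisson intervals, and all cover counting error only. No test was made. The code for intervals and thinning was tested on simulated data. Of Ddit3, listed under 2 identifiers, the lower was used. Coordinates are from GENCODE M21 (GRCm38), which held 32158 of the 32285 identifiers. Genes named outside the 10 were the highest and lowest ratio of each list and the 5 most like profiles over clusters, of which 1 is not reported here. The 10 genes and all lists were chosen with earlier results of these data known. Alternatives to the cell filter, scaling, weighting, fold, gene minimum and clustering were computed, and those on gene length and on cells with 1000 to under 2000 UMIs were added after the data were seen.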

Additional observations from a re-analysis of the deposited data

Results flagged for a closer look

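A total of 3 genes went in opposite directions in different clusters, each beyond counting error, and the difference between the clusters was not tested. Sdf2l1 had a ratio of 0.695 (0.516 to 0.938) in limb and body wall mesenchyme-like cells and 4.20 (1.04 to 36.7) in yolk sac and hepatic endoderm-like cells, where it rested on 2 wild-type and 24 Usb1-null UMIs. Dnajb9 had a ratio of 0.572 (0.386 to 0.846) in limb and body wall mesenchyme-like cells and 3.23 (1.12 to 11.4) in neuron-like cells, with 5 and 15 UMIs. Asns had a ratio of 0.384 (0.171 to 0.825) in splanchnic mesoderm-like cells, with 20 and 12 UMIs, and 1.58 (1.00 to 2.54) in neural crest and glia-like cells, with 29 and 64. Of 10882 genes with at least 500 UMIs, 11.5% also had clusters on both sides beyond counting error.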

How the results depend on the processing

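In cells with 1000 to under 2000 UMIs, chosen after seeing the data, 1 gene was at least 1.2-fold lower and 5 higher, the median log2 ratio was 0.21, and Herpud1 turned to 1.02. Hspa5, Sdf2l1, Dnajb9, Atf4 and Asns, none past 1.2-fold in all cells, also crossed 1 there. Thinned to 750 UMIs per cell, 3 genes were lower and 2 higher, with Hspa5 at 0.938. With at least 1000 genes per cell, 1 gene was lower and the median was -0.038. Relative to gene length quintiles, also added later, the median was -0.0085. At 1.5-fold, 1 gene was lower and 0 were higher. Herpud1 was no longer 1.2-fold lower with wild-type cluster shares (0.842) or by gene length (0.851), which left 2 genes lower each. With equal weight per cell, 4 genes were lower, Sdf2l1 at 0.819 among them. The cause was not tested. Over the alternatives, Creld2 stayed between 0.578 and 0.677, Pdia4 between 1.33 and 1.41 and Hyou1 between 1.26 and 1.35. Manf ran from 0.785 to 0.936, Herpud1 from 0.798 to 1.02, Hspa5 from 0.888 to 1.1, Sdf2l1 from 0.819 to 1.06, Dnajb9 from 0.918 to 1.21, Atf4 from 0.935 to 1.27 and Asns from 0.871 to 1.37. The fold between the highest and lowest cluster of the summed ER genes became 2.63 for the wild-type and 2.1 for the Usb1-null library when clustered without doublets, and 1.57 in wild-type cells with a minimum of 300 cells per cluster. Of 110 recomputed gene ratios 18 moved beyond their counting interval and 1, past 1.2-fold in all cells, crossed 1. Of 70 cluster counts 5, and of 78 list counts 21, moved by over 1.5 times. The lists were recomputed with other gene minimums and in the depth range, not by gene length. No paired analysis was possible because each genotype had 1 library.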
